A study of Homo sapiens with 4 samples.

Results

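Matrix proteases, their inhibitors and the enzymes that process and crosslink collagen were examined in ES-2, a human cell line labelled as ovarian clear cell carcinoma that carries the endogenous YAP1-MAML2 (YM) fusion. Cells were transduced with pLKO.1 lentivirus expressing a non-targeting control shRNA (shCtl, n = 2 biological replicates) or an shRNA against MAML2 (shM2-3, n = 2), which acts on both MAML2 and the fusion transcript. RNA was taken 96 h after the first infection according to the sample labels, and the study's methods give a shorter time. ES-2 is a single line, 1 shRNA was sequenced, and the control cells carry the fusion as well. The genes were taken from a fixed list of 48 names, of which 46 had a row among the 19626 genes of the deposited tables, and MMP7 and TIMP4 had none. Of the 46 genes, 33 passed an RPKM above 1 in at least 1 library and were tested among 12157 genes, and 13 did not pass. RPKM is the read count scaled to gene length and to library size, which allows levels to be compared between genes.

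Cells remodel the matrix around them with secreted and membrane-bound metalloproteinases (MMPs, ADAMs and ADAMTS enzymes) and with plasmin, which the activators PLAU and PLAT release from plasminogen. Tissue inhibitors of metalloproteinases (TIMPs) and serpins hold these proteases in check. BMP1 and its enhancer PCOLCE trim procollagen so that fibrils can assemble, and lysyl oxidases then crosslink the fibrils. In carcinomas these genes are known for their part in invasion and in the stiffness of the tumor matrix.

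MAML2, the targeted gene, went from 8.44 ± 0.243 to 3.05 ± 0.0776 RPKM (SD, n = 2 each), with a log2 fold change of -1.40 (SE 0.0688), and its reads include those of the fusion. The estimated counts summed to between 20051083 and 23978660 per library. Fewer cells of one kind and less RNA per cell cannot be told apart in these bulk libraries. Of the clear cell carcinoma markers, NAPSA and PAX8 stayed at or under 0.369 RPKM in every library, whereas ARID1A lay between 13.4 and 17.4 RPKM. KRT8 and KRT18 were present, with 1 of 5 epithelial markers called lower, but KRT19, EPCAM and CDH1 stayed at or under 0.361 RPKM. The epithelial list summed to 368 to 369.9 RPKM in shCtl and to 205 to 209 RPKM in shM2-3, and KRT18 had a log2 fold change of -0.68 (SE 0.0392), short of the fold change limit of 2. Among the 7 fibroblast markers, 2 passed 1 RPKM in any library, PDGFRA (called higher) and THY1, and the list summed to 40.7 to 42.3 RPKM in shCtl and 46.7 to 47.5 RPKM in shM2-3. The other 5, the fibrillar collagens COL1A2 and COL3A1 with DCN, LUM and POSTN, were at or under 0.413 RPKM in each of the 4 libraries. PTPRC and CD3E were at or under 0.0256 RPKM, while 1 of 5 leukocyte markers (CSF1R) was called higher, and the list summed to 57.4 to 58.2 RPKM in shCtl and 41.2 to 42.1 RPKM in shM2-3, nearly all from CD68. Of 4 endothelial markers, PECAM1 was called higher and CDH5 lower, with sums of 9.40 to 10.6 RPKM in shCtl and 5.09 to 5.65 RPKM in shM2-3. The part of other cell types in the results was not tested.

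Genes were called changed when the adjusted p (edgeR quasi-likelihood, Benjamini-Hochberg) was at most 0.05 and the fold change was at least 2. Each log2 fold change is shM2-3 minus shCtl, with its standard error (SE). Of the 33 tested matrix genes, 15 were called higher and 7 lower in shM2-3, and 11 were not called. That is 66.7% called, beside 18.2% of all genes tested. By direction, 45.5% of the tested matrix genes were called higher and 21.2% lower, beside 9.24% and 8.93% of all genes. The adjusted p limit alone was passed by 20 matrix genes in the higher and 11 in the lower direction, beside 36.3% and 36.4% of all genes tested. In 20 genes both shM2-3 libraries lay above both shCtl libraries and in 12 they lay below, whereas 38.9% and 47.1% of all genes were so separated. This separation was read on RPKM, without the further scaling used for the fold changes. On log2(RPKM + 0.1) in limma, the median log2 fold change of all genes tested was -0.07. In the edgeR fit the median was 0.59 for the 33 genes and 0.00 for all genes tested. The median of its absolute size was 1.30 against 0.45. The list was chosen with results of these libraries known, so these shares describe the genes and support nothing further. The filter on low values also favors genes that changed, since MMP3 passed it in shCtl only and ADAMTS3 in shM2-3 only, while 31 genes passed in both groups.

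**Figure D1:**
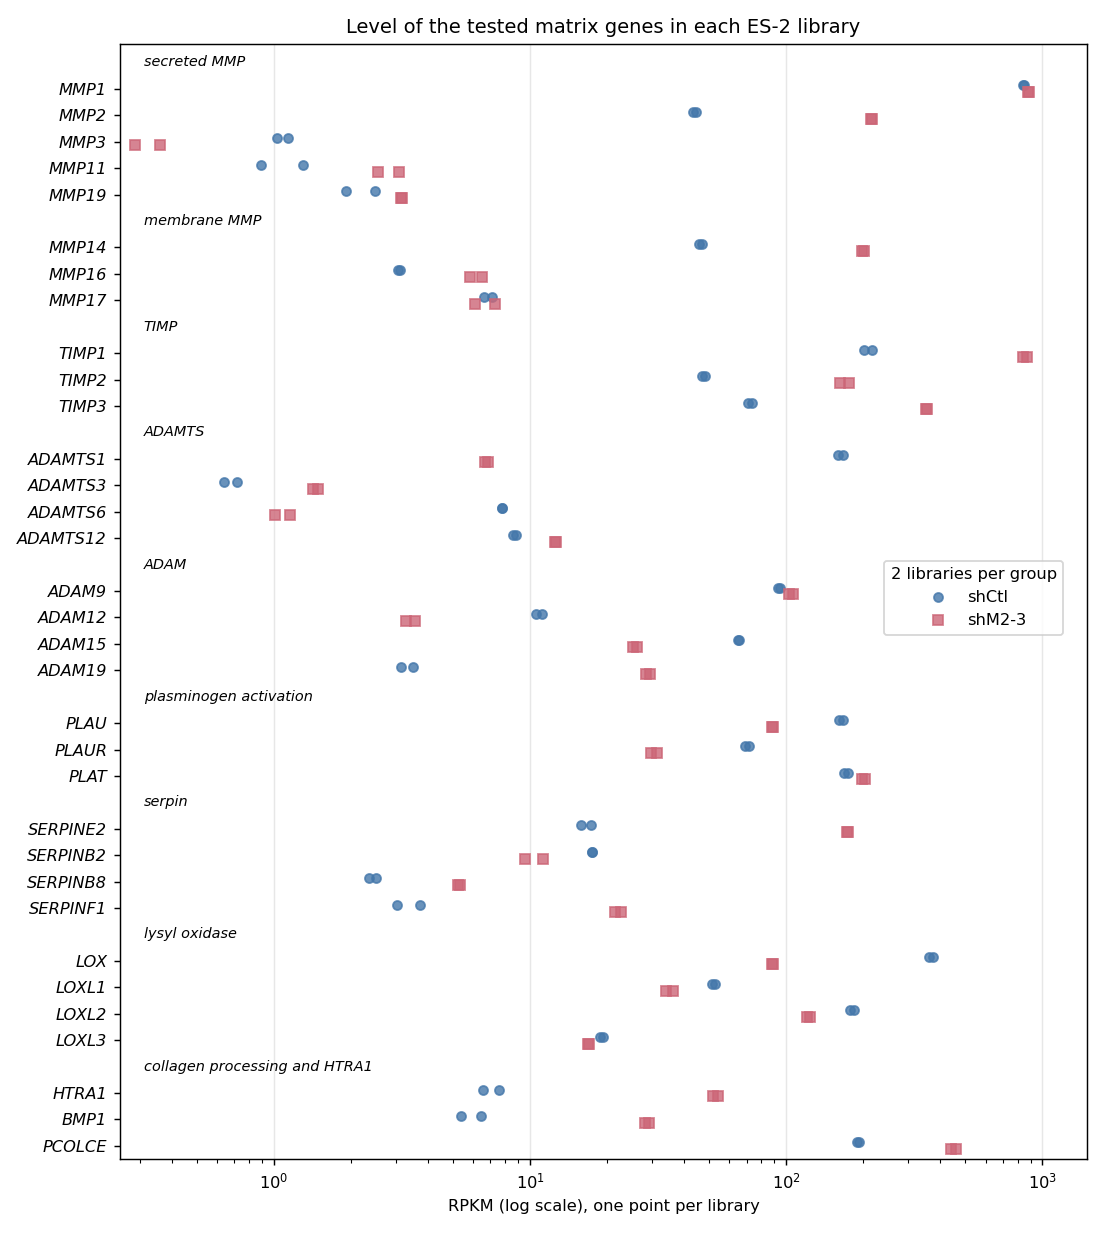
RPKM (log scale, 1 point per library) of the 33 tested matrix genes in the 2 shCtl and 2 shM2-3 libraries, grouped by role. The libraries of a group sat close together and the 2 groups overlapped in 1 of the 33 genes, MMP17.

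**Figure D2:**
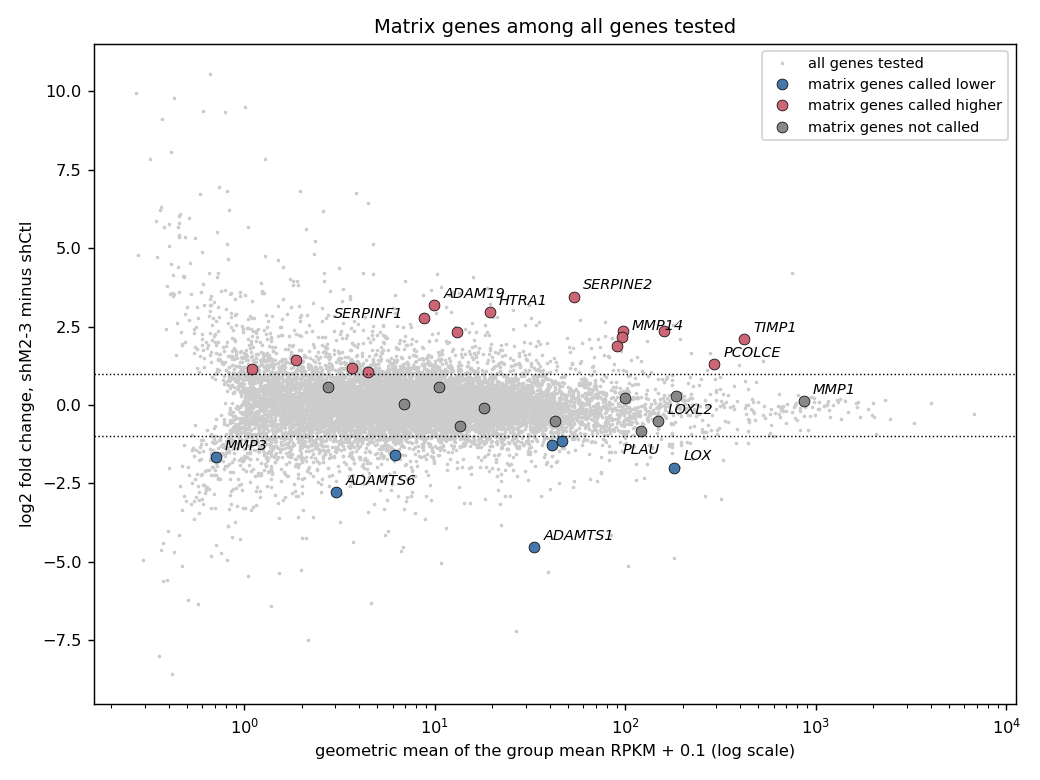
Log2 fold change (shM2-3 minus shCtl) against the geometric mean of the group mean RPKM (log scale, with 0.1 added) for the 12157 genes tested, with the 33 matrix genes as large points and dotted lines at a fold change of 2. The 15 genes called higher and 7 called lower lay at low and high levels alike, from MMP3 to TIMP1.

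TIMPs rose together. All 3 TIMP genes with a row were tested and all 3 were called higher, with a median log2 fold change of 2.11. TIMP1, the most abundant of them, was at 200.4 and 216 RPKM in shCtl and at 843 and 869 RPKM in shM2-3. The log2 fold change of TIMP1 was 2.11 (SE 0.0456). TIMP2, which besides inhibiting MMPs helps MMP14 to activate pro-MMP2, rose from 47.0 and 48.3 RPKM to 162 and 176 RPKM, a log2 fold change of 1.89 (SE 0.0479). TIMP3, which is held in the matrix and also inhibits ADAM and ADAMTS enzymes, was at 71.0 and 73.4 RPKM in shCtl and at 352 and 354 RPKM in shM2-3. The log2 fold change of TIMP3 was 2.36 (SE 0.0361), and no TIMP library of one group reached the range of the other. The adjusted p of the 3 genes (edgeR quasi-likelihood, Benjamini-Hochberg) lay between 5.43e-15 and 5.08e-13.

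TIMP3 (chromosome 22 of hg38, 32801705 to 32863041, plus strand) gives an example of the sequence in front of a gene that rose. RefSeq promoter windows (GRCh38.p14) were found for 29 of the 46 genes, and only the 250 bases before the annotated start were read. Motifs were searched on both strands: the TEAD motif (GGAATG), the AP-1 motif (TGANTCA) and the GC box (GGGCGG), with overlapping matches each counted. The window shown lies at chr22:32801455-32801704 on the plus strand and has these motifs in capitals, all of them GC boxes.
TIMP3: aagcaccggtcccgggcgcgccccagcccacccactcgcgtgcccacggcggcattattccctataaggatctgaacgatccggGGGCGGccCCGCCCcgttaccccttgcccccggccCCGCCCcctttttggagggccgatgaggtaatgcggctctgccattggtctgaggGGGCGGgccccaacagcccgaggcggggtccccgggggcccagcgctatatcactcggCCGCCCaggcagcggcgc
The TEAD motif was in 3 of the 29 windows (10.3%, against 11.9% of 27305 RefSeq windows of the same length and 9.53% of those of tested genes), those of ADAMTS6, ADAMTS12 and LOXL3. The AP-1 motif was in 5 (17.2%, against 6.60% of all windows and 3.91% of those of tested genes), those of ADAMTS12, MMP10, SERPINB2, SERPINB8 and PLAUR. The GC box was in 19 (65.5%, against 42.3% of all windows and 68.3% of those of tested genes). These are matches of letters in a short window and were not tested further.

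Among MMPs, the gelatinase MMP2 and the membrane-anchored MMP14 rose in parallel, whereas the collagenase MMP1 stayed within a narrow range. Of the 7 secreted MMP genes, 5 were tested, 2 were called higher and 1 lower. Of the 5 membrane MMP genes, 3 were tested and 2 were called higher. MMP2, which cleaves denatured collagen and basement membrane collagen, was at 43.3 and 44.4 RPKM in shCtl and at 215 and 216 RPKM in shM2-3. MMP2 had a log2 fold change of 2.36 (SE 0.0393). MMP14 (chromosome 14, 22836560 to 22849041, plus strand), the membrane collagenase that activates pro-MMP2, was at 45.6 and 46.8 RPKM in shCtl and at 197 and 202 RPKM in shM2-3. MMP14 had a log2 fold change of 2.18 (SE 0.0406), between those of its cofactor TIMP2 and its substrate MMP2, and adjusted p was 2.70e-14 for MMP14 and 1.14e-14 for MMP2 (edgeR quasi-likelihood, Benjamini-Hochberg).

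MMP1, which cuts intact fibrillar collagen, was the most abundant of all 46 genes in both groups. It was at 844 and 846 RPKM in shCtl and at 881 and 886 RPKM in shM2-3, so that the groups were apart by little. The log2 fold change of MMP1 was 0.13 (SE 0.0319), which passed the adjusted p limit (0.00238, edgeR quasi-likelihood, Benjamini-Hochberg) but not the fold change limit. MMP1, MMP3 and MMP10 lie side by side on chromosome 11 of hg38, all on the minus strand, MMP10 from 102770502 to 102780628, MMP1 from 102789401 to 102798160 and MMP3 from 102835801 to 102843609. The locus of MMP10, the nearest of these 3 to YAP1, lies 537 kb beyond the annotated end of YAP1. The 3 genes had different values. MMP3, the stromelysin that also activates pro-MMP1, had 48 and 45 estimated counts with shCtl and 15 and 17 with shM2-3. It fell from 1.13 and 1.03 RPKM to 0.287 and 0.360 RPKM, with a log2 fold change of -1.67 (SE 0.426). MMP10, a close relative of MMP3, had 8 and 6 counts with shCtl, 38 and 29 with shM2-3, and did not pass the RPKM filter.

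The remaining MMPs were at low levels. MMP11 (stromelysin-3) rose from 1.30 and 0.891 RPKM to 2.55 and 3.09 RPKM, a log2 fold change of 1.42 (SE 0.237). MMP16, a transmembrane MMP that can activate pro-MMP2, rose from 3.11 and 3.06 RPKM to 6.49 and 5.83 RPKM, a log2 fold change of 1.06 (SE 0.0661). This call was just past the fold change limit, and without shM2-3 replicate 1 the log2 fold change of MMP16 was 0.99, short of it. On the log2(RPKM + 1) scale in limma, MMP3 (-0.65), MMP11 (0.87) and MMP16 (0.81) were also short of the limit. MMP19 had a log2 fold change of 0.59 (SE 0.153) and was not called. It shares 17.6% of its exonic bases with TMEM198B on the other strand. TMEM198B was at a mean of 4.44 RPKM in shCtl and 5.64 RPKM in shM2-3, against 2.20 and 3.15 RPKM for MMP19. MMP17, which is anchored by a lipid tail, was at 7.08 and 6.62 RPKM in shCtl and at 6.11 and 7.32 RPKM in shM2-3. It was the 1 tested gene whose groups overlapped, with a log2 fold change of 0.04 (SE 0.114). MMP9, MMP15 and MMP24 stayed under 1 RPKM in each library, and 18.4% of the exonic bases of MMP24 are shared with MMP24OS on the other strand, which was far higher (58.0 RPKM in shCtl).

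Summed over the 12 MMP genes, RPKM was 949 and 952 in shCtl and 1314 and 1325 in shM2-3. The 3 TIMP genes summed to 318 and 338 RPKM in shCtl and to 1357 and 1398 RPKM in shM2-3. TIMP transcripts per MMP transcript, as the ratio of these sums, were thus 0.345 ± 0.0135 in shCtl and 1.04 ± 0.0156 in shM2-3 (SD, n = 2 each). MMP1 made up 88.9% of the MMP sum in shCtl and 67.0% in shM2-3. When MMP1 was left out, the ratio was 3.12 ± 0.0914 in shCtl and 3.16 ± 0.0315 in shM2-3 (SD, n = 2 each), a difference smaller than the SD in shCtl.

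**Figure D3:**
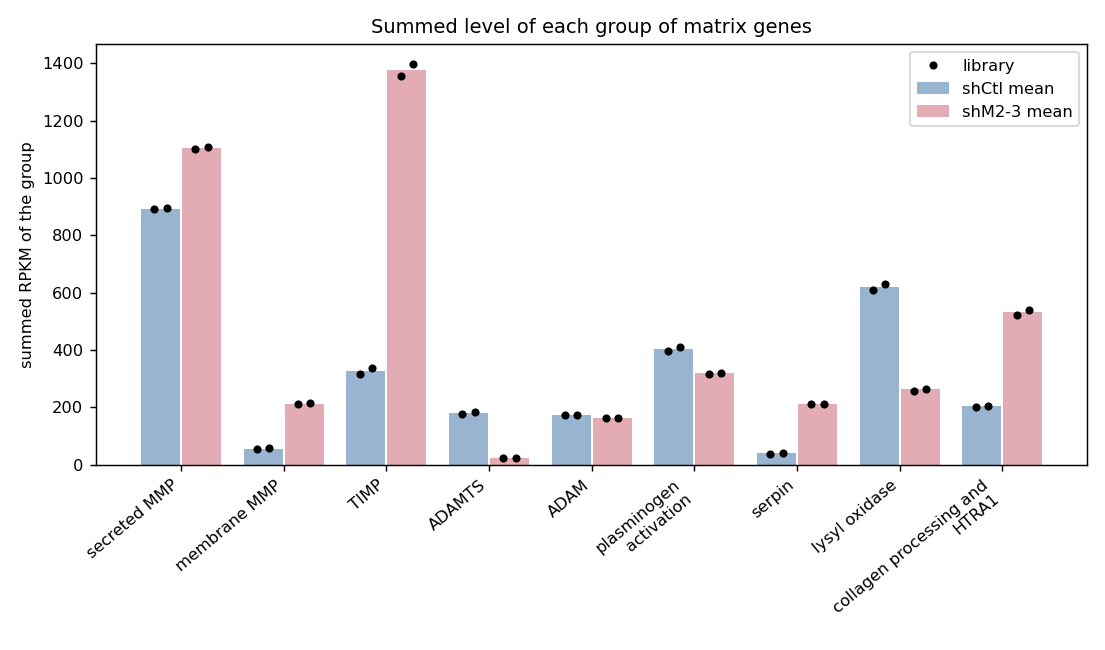
Summed RPKM of each group of matrix genes (bars from 0, mean of 2 libraries, points for single libraries). TIMP genes rose from a mean of 328 to 1378 RPKM, while lysyl oxidases went from 620.4 to 263 RPKM. The 10 listed ADAMTS genes went from 181 to 24.9 RPKM.

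ADAMTS enzymes, secreted proteases of proteoglycans, procollagen and microfibrils, were dominated by ADAMTS1 in control cells, and ADAMTS1 fell further than any other of the 33 genes. ADAMTS1 (chromosome 21, 26835755 to 26845409, minus strand), which cleaves versican and aggrecan, was at 159 and 166 RPKM in shCtl and at 6.85 and 6.65 RPKM in shM2-3. This was 24.0-fold lower by mean RPKM, with a log2 fold change of -4.52 (SE 0.0476). ADAMTS1 held 89.7% of the summed RPKM of the 10 listed ADAMTS genes in shCtl and 27.1% in shM2-3. ADAMTS6, an enzyme linked to fibrillin microfibrils, was at 7.75 RPKM in both shCtl libraries and at 1.01 and 1.16 RPKM in shM2-3, a log2 fold change of -2.78 (SE 0.0879). The adjusted p was 1.17e-16 for ADAMTS1 and 5.14e-12 for ADAMTS6 (edgeR quasi-likelihood, Benjamini-Hochberg). A promoter window was found for 5 of the 7 genes called lower and 10 of the 15 called higher. For ADAMTS1 there was none. Among these windows, that of ADAMTS6 (chromosome 5, 65148738 to 65481920, minus strand) was the 1 with the TEAD motif. The motif is in capitals in the window at chr5:65481921-65482170 on the minus strand. The first base of the motif is 200 bases before the annotated start.
ADAMTS6: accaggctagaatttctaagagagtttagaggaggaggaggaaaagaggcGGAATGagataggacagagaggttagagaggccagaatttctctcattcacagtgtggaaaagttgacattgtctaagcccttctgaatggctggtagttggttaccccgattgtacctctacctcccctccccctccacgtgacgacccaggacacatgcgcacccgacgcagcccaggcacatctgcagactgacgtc

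Other ADAMTS genes were higher in shM2-3 or low throughout. ADAMTS12, which cleaves cartilage oligomeric matrix protein, was at 8.79 and 8.61 RPKM in shCtl and at 12.6 and 12.5 RPKM in shM2-3. Its log2 fold change of 0.59 (SE 0.0463) passed the adjusted p limit but not the fold change limit. It held 50.2% of the summed RPKM of the 10 listed ADAMTS genes in shM2-3, a sum that leaves out ADAMTS2. ADAMTS3, a procollagen N-propeptidase, rose from 0.636 and 0.719 RPKM to 1.42 and 1.49 RPKM, a log2 fold change of 1.17 (SE 0.167). On the log2(RPKM + 1) scale in limma its value was 0.55 and was not called. ADAMTS5 is an aggrecanase whose locus lies 72.5 kb from that of ADAMTS1 on chromosome 21. It went from 34 and 40 counts to 229 and 170, whereas ADAMTS1 went from 19261 and 20470 to 1017 and 894. The values of these neighbors lay in opposite directions, although ADAMTS5 stayed under 1 RPKM and was not tested with the filter. ADAMTS7, ADAMTS9, ADAMTS10, ADAMTS13 (which cleaves von Willebrand factor) and ADAMTS15 also stayed under 1 RPKM.

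ADAM proteases, membrane enzymes that shed the outer parts of other cell surface proteins, changed in both directions. Of 5 genes, 4 were tested, 2 were called lower and 1 higher. ADAM19 was at 3.13 and 3.48 RPKM in shCtl and at 28.3 and 29.5 RPKM in shM2-3, an 8.75-fold difference by mean RPKM and a log2 fold change of 3.19 (SE 0.0596). ADAM12 went the other way, from 10.5 and 11.1 RPKM to 3.56 and 3.27 RPKM, a log2 fold change of -1.60 (SE 0.0613). ADAM15 fell from 64.9 and 65.5 RPKM to 25.2 and 26.2 RPKM, a log2 fold change of -1.28 (SE 0.0447). ADAM9, the most abundant ADAM of the list, was at 94.6 and 92.6 RPKM in shCtl and at 106 and 103 RPKM in shM2-3 and was not called (log2 fold change 0.23, standard error 0.0386). The adjusted p of the 3 called genes lay between 2.70e-14 and 4.03e-11 (edgeR quasi-likelihood, Benjamini-Hochberg). Because of these opposite moves the ADAM sum was 173 RPKM in both shCtl libraries and 163 RPKM in both shM2-3 libraries. ADAM8 stayed under 1 RPKM. The windows before ADAM19 (chr5:157575776-157576025, minus strand) and ADAM12 (chr10:126388478-126388727, minus strand) are shown as a pair that moved in opposite directions. The same motifs are in capitals, and those in ADAM12 are GC boxes, while ADAM19 has no match.
ADAM19: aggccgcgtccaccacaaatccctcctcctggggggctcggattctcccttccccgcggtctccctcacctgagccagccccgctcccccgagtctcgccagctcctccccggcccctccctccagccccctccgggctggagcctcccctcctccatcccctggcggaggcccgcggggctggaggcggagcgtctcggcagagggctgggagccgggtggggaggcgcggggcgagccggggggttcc
ADAM12: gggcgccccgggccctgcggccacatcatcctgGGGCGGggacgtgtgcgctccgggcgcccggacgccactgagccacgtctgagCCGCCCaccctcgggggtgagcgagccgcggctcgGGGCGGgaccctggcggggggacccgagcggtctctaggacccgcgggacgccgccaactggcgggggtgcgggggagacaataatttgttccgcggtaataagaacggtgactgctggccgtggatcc

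Of the 3 genes of plasminogen activation, only the receptor was called. PLAU (urokinase) was at 161 and 166 RPKM in shCtl and at 88.7 and 88.1 RPKM in shM2-3. Its log2 fold change was -0.82 (SE 0.0392), past the adjusted p limit (3.79e-10, edgeR quasi-likelihood, Benjamini-Hochberg) but not the fold change limit. PLAUR, the receptor that holds urokinase at the cell surface, fell from 68.8 and 71.3 RPKM to 31.3 and 29.7 RPKM, a log2 fold change of -1.13 (SE 0.0477). PLAT (tissue plasminogen activator) was at 168 and 174 RPKM in shCtl and at 197 and 203 RPKM in shM2-3 and was not called (log2 fold change 0.29, standard error 0.0389). PLAU shares 31.0% of its exonic bases with C10orf55 on the other strand, which was at a mean of 1.04 RPKM in shCtl.

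Serpins trap serine proteases such as urokinase. Of 4 serpin genes on the list, all were tested and 3 were called higher. SERPINE2, a cell-bound inhibitor of thrombin and urokinase, was at 15.8 and 17.3 RPKM in shCtl and at 175 and 173 RPKM in shM2-3. Its log2 fold change of 3.46 (SE 0.0498) was the highest of the 33 genes, 10.5-fold by mean RPKM, with an adjusted p of 3.46e-15 (edgeR quasi-likelihood, Benjamini-Hochberg). SERPINF1 (pigment epithelium-derived factor), a serpin without inhibitory activity, rose from 3.73 and 3.02 RPKM to 21.5 and 22.6 RPKM, a log2 fold change of 2.77 (SE 0.107). SERPINB8, an inhibitor of furin-like proteases, rose from 2.35 and 2.50 RPKM to 5.24 and 5.31 RPKM, a log2 fold change of 1.19 (SE 0.0956). On the log2(RPKM + 1) scale in limma the value of SERPINB8 was 0.88, short of the limit. SERPINB2, the urokinase inhibitor that lies 66.1 kb before SERPINB8 on chromosome 18, was lower, at 17.4 and 17.5 RPKM against 11.2 and 9.56 RPKM, and was not called (log2 fold change -0.68, standard error 0.0849).

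Lysyl oxidases, copper enzymes that crosslink collagen and elastin, had 1 member that fell, LOX, and 3 whose values were nearer to the control. Of 5 genes, 4 were tested, 1 was called lower and none higher. LOX (chromosome 5, 122063195 to 122078413, minus strand) was at 361 and 375 RPKM in shCtl and at 87.8 and 88.9 RPKM in shM2-3. Its log2 fold change was -1.99 (SE 0.0361), and its adjusted p was 2.14e-14 (edgeR quasi-likelihood, Benjamini-Hochberg). LOXL2 was at 178 and 184 RPKM against 121 and 124 RPKM, a log2 fold change of -0.50 (SE 0.0387). LOXL1 also had a value of -0.50 (SE 0.0498), from 51.4 and 52.9 RPKM to 34.0 and 36.3 RPKM. LOXL3 was at 19.2 and 18.8 RPKM in shCtl and at 17.0 and 16.8 RPKM in shM2-3. It had a value of -0.11 (SE 0.0528) and an adjusted p of 0.0821 (edgeR quasi-likelihood, Benjamini-Hochberg). LOXL1 and LOXL2 passed the adjusted p limit without the fold change limit, and LOXL3 passed neither. LOX made up 59.3% of the summed lysyl oxidase RPKM in shCtl and 33.6% in shM2-3, where LOXL2 had the larger share (46.6%). LOXL3 shares 20.7% of its exonic bases with HTRA2 on the other strand. HTRA2 was at a mean of 15.3 RPKM in shCtl and 8.29 RPKM in shM2-3, and its part in the LOXL3 value was not tested. LOXL4 was at 4 counts or fewer in each library.

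BMP1, PCOLCE and HTRA1 rose in shM2-3. BMP1, the procollagen C-proteinase that also activates pro-LOX, was at 5.37 and 6.46 RPKM in shCtl and at 28.1 and 29.0 RPKM in shM2-3. Its log2 fold change was 2.34 (SE 0.0725). PCOLCE, which speeds up cleavage by BMP1, rose from 189 and 193 RPKM to 441 and 459.6 RPKM, a log2 fold change of 1.30 (SE 0.0406). HTRA1, a secreted serine protease of fibronectin and proteoglycans, was at 7.53 and 6.56 RPKM in shCtl and at 54.1 and 51.8 RPKM in shM2-3, a log2 fold change of 2.97 (SE 0.0707). All 3 tested genes of this group were called higher, with adjusted p between 2.63e-13 and 4.38e-12 (edgeR quasi-likelihood, Benjamini-Hochberg). TLL1, a relative of BMP1, had 6 and 5 counts with shCtl against 3 and 2 with shM2-3, too few for a fold change.

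**Figure D4:**
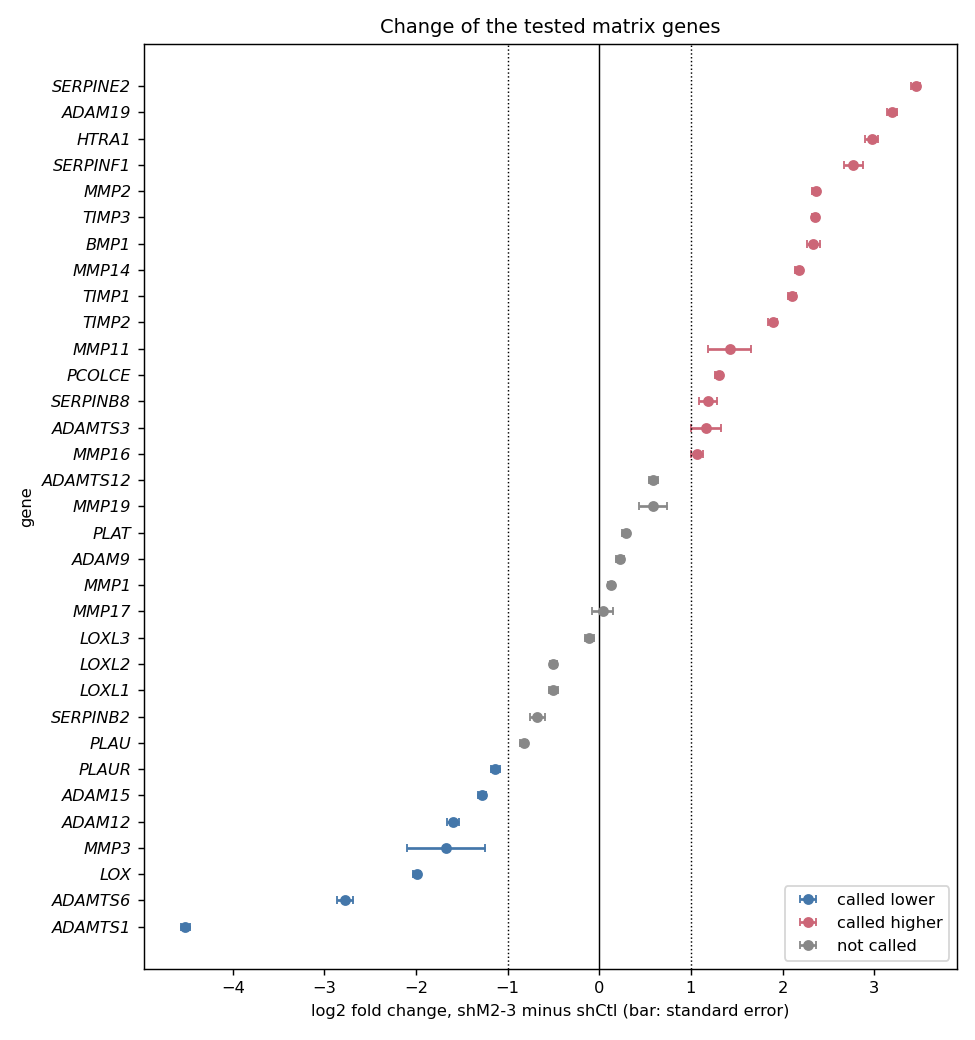
Log2 fold change (shM2-3 minus shCtl, horizontal axis) of the 33 tested matrix genes in order, with standard errors from edgeR as bars and dotted lines at a fold change of 2. Values ran from -4.52 for ADAMTS1 to 3.46 for SERPINE2, and 11 genes lay between the dotted lines.

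The 13 genes under the RPKM filter were read in a fit of all 19626 genes without a filter. There 4 of them were called higher and none lower, beside 8.45% and 7.76% of all genes. ADAMTS5 had a log2 fold change of 2.25 (SE 0.225), MMP10 of 2.06 (0.590), ADAMTS15 of 1.96 (0.256) and ADAM8 of 1.29 (0.443). ADAMTS15, which like ADAMTS5 cleaves aggrecan, went from 38 and 27 counts to 146 and 139. ADAM8 went from 11 and 22 counts to 43 and 48. For the other 9, MMP9, MMP15, MMP24, ADAMTS7, ADAMTS9, ADAMTS10, ADAMTS13, LOXL4 and TLL1, no call was made, and differences in most of them were not detectable at this depth. The exceptions were ADAMTS9 (0.50) and ADAMTS13 (0.75), which passed the adjusted p limit in that fit but not the fold change limit.

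A wider list of matrix remodelling genes outside the 48 was read for comparison. Of 86 names, 81 had a row and 42 were tested, of which 9 were called higher and 4 lower (31.0% called, beside the 18.2% of all genes), with a median log2 fold change of 0.04. Those called lower included the heparan sulfate-cleaving HPSE (log2 fold change -2.26), PCOLCE2 (-1.79) and PLOD2 (-1.29). PCOLCE2, a second enhancer of procollagen cleavage, fell from 13.8 ± 0.414 to 3.80 ± 0.0942 RPKM, while PCOLCE rose. PLOD2, the lysyl hydroxylase that prepares collagen telopeptides for crosslinking by LOX, fell with it, from 212 ± 0.125 to 82.9 ± 1.84 RPKM (SD, n = 2 each). The highest were SERPINA5 (protein C inhibitor, 3.73), PXDN (peroxidasin, which crosslinks basement membrane collagen, 2.09), the collagen chaperone SERPINH1 (1.67) and the proteoglycan SPOCK1 (1.46). Standard errors of these 7 values were between 0.0370 and 0.147.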

How the data were processed

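RNA from 4 libraries of ES-2 cells (2 shCtl, 2 shM2-3) was sequenced as non-strand-specific paired ends of 150 bases. The authors aligned reads to hg38 with HISAT2 2.0.4, removed ambiguous and low-quality alignments and quantified RefSeq transcripts in Partek 7.18 (versions per the labels). The deposited values are estimated counts without normalization, of which 42.4% to 48.6% per library were whole numbers. RPKM, also deposited, scales them to gene length and library size. Groups came from sample titles.

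Estimated counts were rounded, and edgeR 4.0.16 (R 4.3.3, glmQLFit and glmQLFTest, TMM, no block) was run on the 12157 genes that exceeded 1 RPKM in any library. The standard error is the log2 fold change over the square root of F. The biological coefficient of variation was 0.0485. An SD over 2 libraries is imprecise, and genes with few counts carry more counting error. The script was tested on simulated data. Alternatives used DESeq2 1.42.0 and limma 3.58.1 on log2(RPKM + 0.1) and log2(RPKM + 1), other filters, fold limits and scaling, the replicate number as a block, and leaving out each library.

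The genes and lists were chosen with earlier results of these data known. Each gene on the list was named, and values per library were given for called genes and those at 5 RPKM or more in both libraries of a group. Of the wider list, the 4 lowest and 4 highest called genes that reached 2 RPKM in both libraries of the higher group were named, except 1 that is not reported here. The fibroblast, leukocyte, endothelial, epithelial and clear cell carcinoma markers were written by hand. Loci and shared exons come from GENCODE release 44, on the same build as the authors', and promoter sequences from RefSeq (GRCh38.p14). In 24 of the 46 genes an exon is shared with another annotated gene, whose reads these unstranded libraries cannot separate.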

Additional observations from a re-analysis of the deposited data

How the results depend on the processing

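Of the 22 called matrix genes, 17 stayed called in the same direction under each of 12 settings (other scaling, filters and tools, the block, and each library left out). The others left the call 7 times in all, and 0 of the 11 tested genes that were not called gained it. Without the RPKM filter, 4 genes outside the 33 were called as well, which brought the count of higher genes to 19. MMP16, MMP3, MMP11, ADAMTS3 and SERPINB8 left it on the log2(RPKM + 1) scale, MMP16 also on the log2(RPKM + 0.1) scale and without shM2-3 replicate 1. MMP17, which was not called, had a log2 fold change of -0.03 on both limma scales. Without one library it ranged from -0.10 (without shM2-3 replicate 2) to 0.17, with -0.02 without shCtl replicate 2.

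With each library left out in turn, 7 matrix genes were called lower and 14 to 15 higher. The fold change limit moved counts most. Without it, 11 matrix genes were lower rather than 7, and 20 were higher rather than 15. On the log2(RPKM + 1) scale, 6 matrix genes were lower and 11 higher. In the wider list, 13 genes were lower at a limit of 1.5 and 16 without a limit, against 4, while 16 and 20 were higher, against 9. That list had 15 genes higher without a filter on low values, which adds genes to the test, and 5 on the log2(RPKM + 1) scale. Over all genes, 1086 were lower and 1123 higher. At a limit of 1.5 these were 2302 and 2296, without a limit 4430 and 4414, and on the log2(RPKM + 1) scale, which shrinks changes of low genes, 723 and 596.

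With the replicate number as a block, 7 matrix genes were lower and 15 higher, and over all genes 1079 and 1123. The correlation of same-numbered deviations across 11697 genes was 0.0121, so no strong shared deviation was seen. With 2 libraries per group this cannot tell whether same-numbered replicates were handled together. The replicates were distinct libraries, with a chi-square per degree of freedom of 3.55 between shCtl replicates and 4.17 between shM2-3 replicates. Depth limits the 13 genes under 1 RPKM, several of which had fewer than 20 counts in a library.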
